A study of Mus musculus with 20 samples.

Results

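Endoglin (Eng), its partner receptors and the genes that read out their signal were followed in tumor vessels of mice treated with 6-3-A6, a neutralizing antibody to Notch4, or with control IgG. The set holds 10 genes of the TGF-beta and BMP pathway, chosen by symbol from the 55866 rows of the count table and all present in it. It comprises 6 receptors (Eng, Acvrl1, Bmpr2, Tgfbr1, Tgfbr2 and Tgfbr3), the 2 inhibitory Smads (Smad6 and Smad7) and 2 Id targets (Id1 and Id3). RiboTagEC mice carry an HA-tagged Rpl22 allele (Rpl22HA/HA) that is switched on by the tamoxifen-inducible Cdh5CreERT2 transgene, whose Cdh5 promoter is active in endothelial cells, so that anti-HA immunoprecipitation (IP) draws ribosome-bound mRNA of those cells out of the tumor homogenate (input). Every mouse was a female C57BL/6J of this genotype, received 75 mg/kg tamoxifen for 5 days from 3 weeks of age, and was implanted at 8 weeks with Py8119 cells, a mouse mammary carcinoma line, in the mammary fat pad. Intravenous 6-3-A6 at 25 mg/kg or control mouse IgG was injected repeatedly, starting at a tumor volume of about 30 mm3 by the labels and 50 mm3 by the design text, and tumors were taken at day 10. The input and the IP of 5 tumors per treatment were sequenced, which makes 20 libraries of 11881214 to 26728205 counts on genes. Counting error was largest for Smad6 (12 to 129 counts per library). The lowest counts of Acvrl1 (66) and Eng (98), both in 6-3-A6 input 4, and of Id1 (111, in control IgG input 5) fell within that range.

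TGF-beta family ligands bind a type II receptor, which activates a type I receptor, which in turn phosphorylates Smad proteins that enter the nucleus with Smad4. In endothelium the pathway has a BMP9/BMP10 branch through Acvrl1 (ALK1), Bmpr2 and the co-receptor endoglin, which drives Smad1/5 and induces Id1, Id3, Smad6 and Smad7, and a TGF-beta branch through Tgfbr2 and Tgfbr1 (ALK5), which drives Smad2/3. Loss of one copy of ENG or ACVRL1 causes hereditary hemorrhagic telangiectasia in humans, and loss of one copy of BMPR2 causes pulmonary arterial hypertension. Several of these receptors are also made by fibroblasts, macrophages and tumor cells, so bulk input cannot assign their RNA to one cell type, and fewer cells of a type cannot be told apart from less RNA per cell.

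Promoters of 6 of the 10 genes were found in the RefSeq promoter table (GRCm38.p6), and 3 are printed because they belong to members of each class: a receptor, an inhibitory Smad and an Id gene. Each runs from 250 bases before the transcription start to 30 bases after it, and capitals mark matches on either strand to CAGAC, a core Smad-binding sequence, to its palindromic form GTCTAGAC, or to GGCGCC, a GC-rich sequence bound by Smads of the BMP branch.
Eng, chr2:32646345-32646624, plus strand: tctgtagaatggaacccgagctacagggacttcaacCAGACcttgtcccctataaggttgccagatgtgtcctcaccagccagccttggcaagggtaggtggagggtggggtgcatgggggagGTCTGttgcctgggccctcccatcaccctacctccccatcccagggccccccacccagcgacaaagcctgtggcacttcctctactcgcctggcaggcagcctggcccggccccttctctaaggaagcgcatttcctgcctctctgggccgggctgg
Smad6, chr9:64022030-64022309, minus strand: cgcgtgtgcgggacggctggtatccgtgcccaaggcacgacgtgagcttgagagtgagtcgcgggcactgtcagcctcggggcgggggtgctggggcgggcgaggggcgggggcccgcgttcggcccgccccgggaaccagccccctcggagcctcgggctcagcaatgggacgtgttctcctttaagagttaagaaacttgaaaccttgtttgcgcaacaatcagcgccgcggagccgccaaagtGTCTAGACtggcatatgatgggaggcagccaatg
Id3, chr4:136143572-136143851, plus strand: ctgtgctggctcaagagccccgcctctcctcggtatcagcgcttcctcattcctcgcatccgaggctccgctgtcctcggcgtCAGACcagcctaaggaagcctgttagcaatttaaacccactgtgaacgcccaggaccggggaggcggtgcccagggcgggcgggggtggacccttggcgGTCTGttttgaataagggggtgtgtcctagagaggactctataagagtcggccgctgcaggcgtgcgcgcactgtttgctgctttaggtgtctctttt
The Eng window held 2 CAGAC matches, starting at -214 and -127 from the transcription start, and the Id3 window held 2, at -167 and -68. CAGAC was present in 46.9% of 27025 mouse promoter windows of this length. The Smad6 window held the palindrome from position -4 across the start, a sequence found in 53 of the 27025 windows (0.196%). Of the members not printed, Tgfbr2 held CAGAC at -160, Bmpr2 held GGCGCC at -105 and Tgfbr1 held it at -233, against 11.0% of all windows for GGCGCC. These matches are a description of the letters and no binding was measured.

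The IP fraction carried endothelial mRNA in every tumor, to unequal degrees. Levels are given in CPM scaled by the TMM factors of edgeR. The summed level of 17 endothelial markers, among them Pecam1, Cdh5 and Kdr, was 200 to 287 CPM over the 10 input libraries, 1462 to 6924 CPM over control IgG IP and 1140 to 6071 CPM over 6-3-A6 IP. The lowest sums belonged to control IgG IP 4 (1462 CPM) and 6-3-A6 IP 2 (1140 CPM). RNA of other cells remained in the IP, where the macrophage list summed to 3306 to 9193 CPM, and 1 of its 13 genes (Itgam) was at 0 in every library. Of the 10 IP libraries, the study used 3 control IgG (replicates 2, 4 and 5) and 3 6-3-A6 libraries (replicates 1, 3 and 4) after principal component analysis, called the kept libraries here. The paper reports that the first such analysis resolved the treatments poorly and that they separated more once outliers were removed. Tests on the kept libraries do not allow for this choice.

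The members differed widely in how far they were enriched in the endothelial IP. Eng, Acvrl1 and Id1 were strongly enriched, Bmpr2 weakly, and Tgfbr3 was depleted, while Tgfbr1, Tgfbr2, Smad6, Smad7 and Id3 did not pass the test. Thus 4 of 10 members rose and 1 fell between input and IP in edgeR's quasi-likelihood test over all 20 libraries (adjusted p under 0.05 after Benjamini-Hochberg adjustment), beside 19.8% of 13582 tested genes that rose and 21.4% that fell. This fit did not pair the IP and input of a tumor. Calls with the tumor as a block, which differ for Smad6 and Smad7, are given below. The members' median log2 fold change was 0.46, beside -0.05 over the tested genes and 4.52 over the endothelial markers, of which 17 of 17 rose (3.23 to 5.41). All 10 members passed the filter on low counts.

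**Figure D1:**
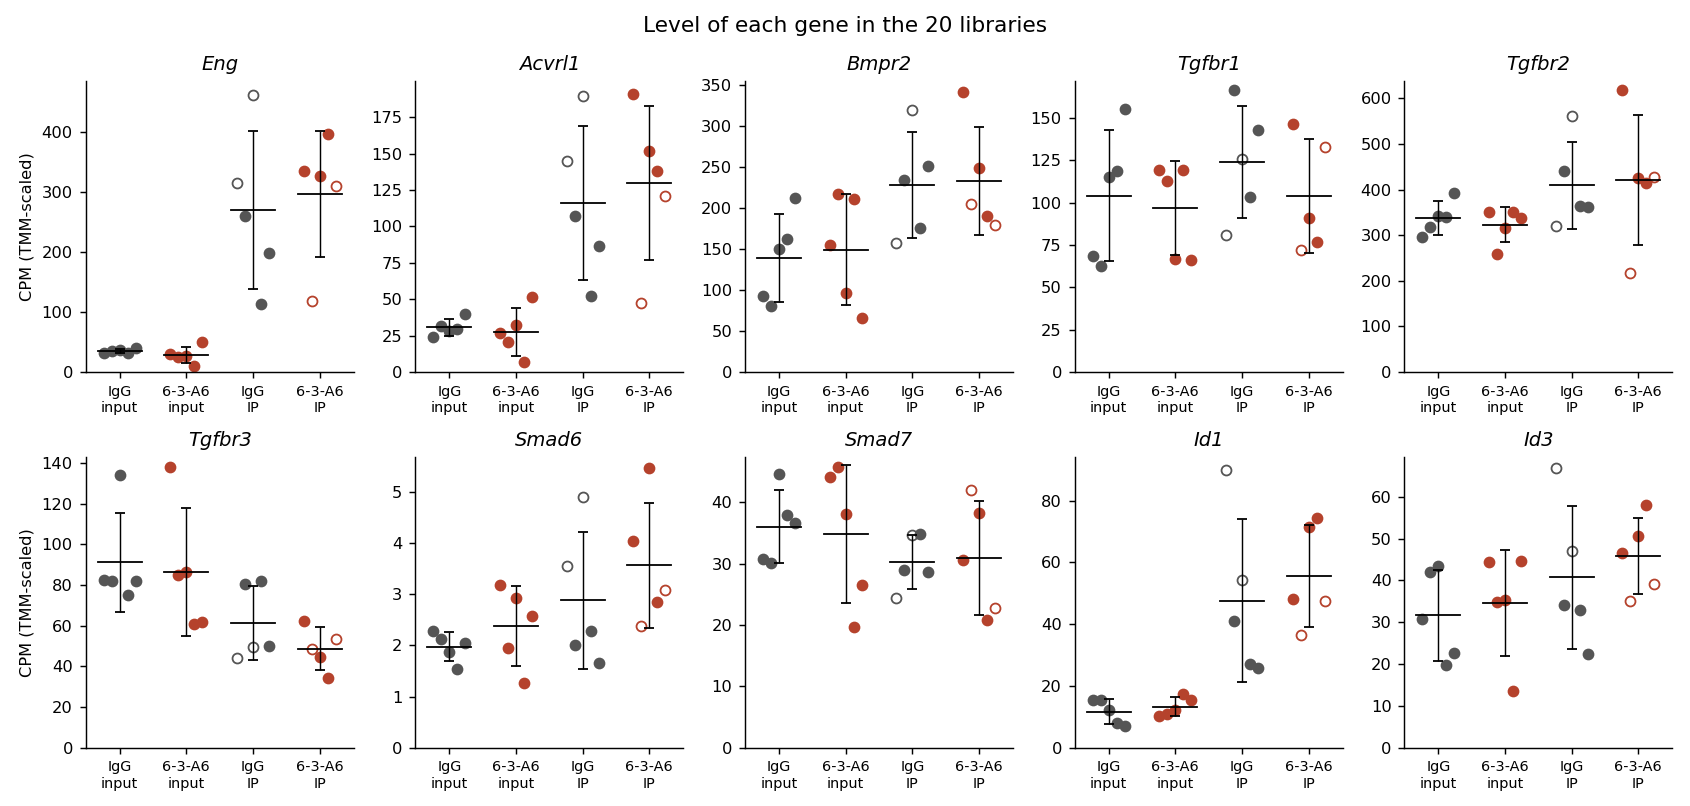
CPM of each member (linear axes from 0) in the 20 libraries, with the mean and SD of 5 libraries per group. Open circles are IP libraries that the study left out, and filled circles are input libraries and the IP libraries it kept; for Eng and Id1 every IP library lies above every input library.

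Eng encodes the endothelial co-receptor endoglin (GRCm39 chr2:32536607-32572681, plus strand). In control IgG tumors 1 to 5 it was at 31.1, 35.7, 37.2, 31.9 and 40.2 CPM in input and at 315, 260, 463, 113 and 198 CPM in IP. In 6-3-A6 tumors 1 to 5 it was at 29.6, 25.8, 26.9, 10.3 and 49.4 CPM in input and at 335, 119, 326, 397 and 311 CPM in IP. The 10 IP libraries lay above the 10 input libraries without overlap, as they did for 4.48% of tested genes. The fold change between fractions was 3.16 on the log2 scale (SE 0.27, adjusted p = 5.89e-09), the highest of the members, with a range over single tumors from 1.82 to 5.25. The highest ratio came from 6-3-A6 tumor 4, whose input was the lowest for Eng. That input library had a TMM factor of 0.68, against 0.89 to 1.12 in the other libraries. Both of the libraries lowest in endothelial markers were the lowest in Eng among the IP libraries.

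Acvrl1 encodes ALK1, the endothelial type I receptor of BMP9 and BMP10 (GRCm39 chr15:101026403-101043217, plus strand). Control IgG input held 24.3, 31.9, 28.2, 29.4 and 40.2 CPM and control IgG IP 145, 107, 190, 52.2 and 86.4 CPM. The 6-3-A6 tumors had 27.0, 20.6, 32.1, 6.94 and 51.6 CPM in input and 191, 47.4, 152, 138 and 121 CPM in IP. IP was above input in 10 of 10 tumors, a pattern shown by 13.9% of tested genes, although the lowest IP library (6-3-A6 2) fell below the highest input library (6-3-A6 5). The log2 fold change was 2.07 (SE 0.29, adjusted p = 8.11e-06) and single tumors ran from 0.83 in control IgG 4 to 4.29 in 6-3-A6 4. That highest ratio came with the lowest input value of Acvrl1 (6.94 CPM, 66 counts).

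Bmpr2 encodes the type II receptor of the BMP branch (GRCm39 chr1:59802559-59918173, plus strand). It lay between 65.6 and 217 CPM in input and between 158 and 341 CPM in IP, and the fractions overlapped. Its log2 fold change was 0.67 (SE 0.22, adjusted p = 0.0185), with IP above input in 8 of 10 tumors. The call was lost without 6-3-A6 replicate 1 (adjusted p = 0.0503) and in the 6 tumors whose IP libraries the study kept (adjusted p = 0.0756).

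Neither of the signaling receptors of the TGF-beta branch passed the test, and their difference from Bmpr2 was not tested. Tgfbr2, the type II receptor that binds TGF-beta (GRCm39 chr9:115913361-116004428, minus strand), was at 260 to 393 CPM in input and 216 to 618 CPM in IP, with a log2 fold change of 0.32 (SE 0.15, adjusted p = 0.0844). It passed the threshold without 6-3-A6 replicate 2 (0.36, adjusted p = 0.0297). Tgfbr1, which encodes ALK5 (GRCm39 chr4:47353222-47414931, plus strand), was at 62.8 to 155 CPM in input and 71.9 to 167 CPM in IP and differed by 0.17 (SE 0.19, adjusted p = 0.490), with IP above input in 6 of 10 tumors.

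Tgfbr3 encodes betaglycan, the co-receptor that presents TGF-beta2 to the type II receptor (GRCm39 chr5:107254436-107437495, minus strand), and was the member that fell. Its input level was 82.6, 81.8, 134, 75.0 and 82.0 CPM in control IgG and 138, 84.9, 86.5, 60.6 and 61.8 CPM in 6-3-A6 tumors. The IP level was 44.3, 80.5, 49.7, 82.1 and 50.3 CPM in control IgG and 62.6, 48.8, 44.8, 34.5 and 53.3 CPM in 6-3-A6 tumors. IP was below input in 9 of 10 tumors, the exception being control IgG 4, which was also among the libraries lowest in endothelial markers. The log2 fold change was -0.70 (SE 0.17, adjusted p = 0.00248). In the 6 tumors of the kept libraries it was -0.59 and missed the threshold (adjusted p = 0.0841). Endoglin and betaglycan, both co-receptors without kinase activity, thus stood at the opposite ends of the set.

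Neither inhibitory Smad passed the test between fractions. Smad6, which blocks Smad1/5 signaling (GRCm39 chr9:63860358-63929341, minus strand), was the scarcest member at 1.26 to 3.17 CPM in input and 1.65 to 5.47 CPM in IP. Its log2 fold change of 0.55 (SE 0.22, adjusted p = 0.0507) missed the threshold, which it passed with the tumor as a block (0.50, adjusted p = 0.0303), with the DESeq2 Wald test (adjusted p = 0.0323) and without control IgG replicate 5 (adjusted p = 0.0390). Smad7, which targets the receptors of both branches for degradation, was at 19.8 to 45.7 CPM in input and 20.8 to 42.1 CPM in IP, with a log2 fold change of -0.22 (SE 0.16, adjusted p = 0.265). With the tumor as a block it was called lower (-0.21, adjusted p = 0.0436), and IP was below input in 8 of 10 tumors.

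The Id genes encode helix-loop-helix proteins that keep basic helix-loop-helix factors from DNA. Id1 was called and Id3 was not, and the difference between them was not tested. Id1 (GRCm39 chr2:152578171-152579330, plus strand) was at 15.6, 15.5, 12.3, 8.09 and 7.12 CPM in control IgG input and at 90.1, 40.9, 54.3, 27.0 and 25.9 CPM in control IgG IP. In 6-3-A6 tumors it was at 10.2, 11.0, 12.3, 17.3 and 15.4 CPM in input and at 48.1, 36.5, 71.6, 74.3 and 47.5 CPM in IP. No IP library overlapped an input library, and the log2 fold change was 2.04 (SE 0.23, adjusted p = 3.01e-07). Single tumors ran from 1.39 to 2.53, the narrowest spread among the 3 strongly enriched members (SD 0.38 against 0.98 for Eng and 1.07 for Acvrl1). Id3 (GRCm39 chr4:135870808-135873066, plus strand) was at 13.7 to 44.6 CPM in input and 22.5 to 66.9 CPM in IP and differed by 0.38 (SE 0.21, adjusted p = 0.153).

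**Figure D2:**
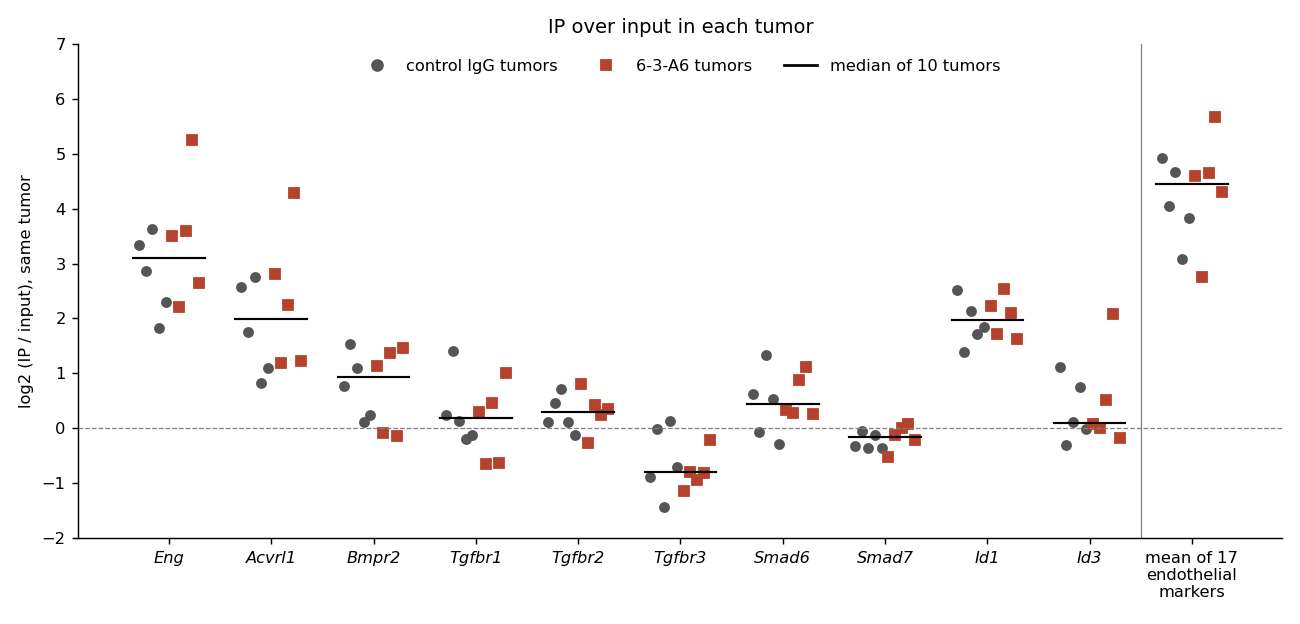
Log2 ratio of IP to input in each of the 10 tumors for each member and for the mean of 17 endothelial markers. Bars mark the medians, which are 3.10 for Eng, 1.99 for Acvrl1, 1.97 for Id1 and -0.81 for Tgfbr3; the mean marker lies above every member in every tumor.

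The members were next compared with the mean of the endothelial markers. When the mean marker ratio of each tumor entered the fit as an offset of its IP library, all 10 members were called lower than the markers, beside 98.7% of all tested genes. Eng came closest with a log2 difference of -1.18 (SE 0.30, adjusted p = 0.000260), level with the lowest marker (-1.18), and 2 of the 17 markers were themselves called lower. It was followed by Id1 at -2.23 (SE 0.31) and Acvrl1 at -2.26 (SE 0.32). Bmpr2, Smad6, Id3, Tgfbr2 and Tgfbr1 ranged from -3.39 to -3.89, and Smad7 (-4.11) and Tgfbr3 (-4.63) lay beyond the median of all genes (-4.06). In single tumors, Eng fell below the lowest of the 17 markers in 4 of 10, Id1 in 8 and Acvrl1 in 9.

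The input levels of Bmpr2 and Tgfbr1 fell into a lower and a higher set of libraries, a grouping made after their values were seen. Bmpr2 was at 65.6 to 95.9 CPM in control IgG input 1 and 2 and 6-3-A6 input 3 and 5, and at 150 to 217 CPM in the other 6 input libraries. Tgfbr1 was at 62.8 to 68.7 CPM in the same 4 libraries and at 113 to 155 CPM in the other 6. Both treatments held libraries of either kind. The split was not particular to these genes, since 761 of 14488 genes (5.25%) were lower in the same 4 libraries without overlap and 505 (3.49%) were higher. In IP the 10 values of Bmpr2 and of Tgfbr1 formed no such gap along these tumors. Reads were counted over whole gene spans, introns included, and the part of intronic reads in these values was not tested.

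Per length, the order of the members changed between the fractions. On the scale of CPM per kb of merged exons (GENCODE M21), Tgfbr2 was the highest in input, with a median of 41.4 in control IgG and 41.2 in 6-3-A6, and Id3 followed with 24.0 and 27.7. Eng was the seventh in control IgG input (median 9.99) and the highest in IP, with a median level of 72.9 in control IgG (31.6 to 130) and 91.4 in 6-3-A6 (33.4 to 111). Tgfbr2 came next in IP with 44.6 and 51.9, then Id1 with 35.3 and 41.5, Acvrl1 with 28.2 and 36.4, and Id3 with 26.7 and 36.5. In 6-3-A6 IP, Id3 thus stood just above Acvrl1. The ranges of neighbors in this order overlapped in both IP groups from Eng down to Id3. Within single IP libraries, Eng per kb lay above Acvrl1, Id1 and Id3 in 10 of 10 and above Tgfbr2 in 9 of 10, whereas Tgfbr2 exceeded Id1 in 6 of 10 and Acvrl1 exceeded Id3 in 6 of 10. Bmpr2, Tgfbr1, Tgfbr3 and Smad7 had medians of 6.61 to 19.6 in IP. The ranges of neighbors among them overlapped except in 6-3-A6 IP, where Tgfbr1 (11.2 to 22.8) lay above Tgfbr3 (5.66 to 10.3). Smad6 was the lowest everywhere, with medians of 0.764 in control IgG IP (0.555 to 1.65) and 1.04 in 6-3-A6 IP (0.799 to 1.84). Scaled to the counted span in place of exons, the compact Id1 and Id3 genes took the first and second place in IP and Eng the third.

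The treatment comparison depended on which libraries entered it. Over the 3 control IgG and 3 6-3-A6 kept libraries, Id1 was the member that rose, and Eng, Acvrl1, Smad6 and Id3 had higher means without passing the threshold. In this fit 4.61% of 13999 tested genes were called, and 2.57% were called higher in 6-3-A6. Id1 was at 40.9, 27.0 and 25.9 CPM in control IgG 2, 4 and 5 and at 48.1, 71.6 and 74.3 CPM in 6-3-A6 1, 3 and 4, a log2 fold change of 1.02 (SE 0.24, adjusted p = 0.0390). The groups did not overlap for Id1, Eng, Acvrl1, Smad6 and Id3, each higher in 6-3-A6, which was so for 13.6% of tested genes. Acvrl1 differed by 0.94 (SE 0.27, adjusted p = 0.0729), Id3 by 0.77 (SE 0.20, adjusted p = 0.0593), Smad6 by 1.04 (SE 0.32, adjusted p = 0.0959) and Eng by 0.86 (SE 0.29, adjusted p = 0.123). Bmpr2 (0.21), Tgfbr2 (0.29), Tgfbr1 (-0.42), Tgfbr3 (-0.61) and Smad7 (-0.07) had adjusted p from 0.224 to 0.903. The members' median was 0.53, beside -0.05 for all genes.

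Endothelial markers moved with these differences. In the kept libraries the marker sum was 1462 to 4770 CPM in control IgG and 4754 to 6071 CPM in 6-3-A6, 6 of 17 endothelial markers were called higher (median log2 fold change 0.93), and 6 of 12 tested macrophage genes were called lower, with a summed level of 6738 to 7822 CPM against 3306 to 3982 CPM. Of the other marker lists, 3 of 4 tested erythroid genes were called higher (median 3.21), with a sum of 20.6 to 45.8 CPM in control IgG and of 29.8, 313 and 554 CPM in 6-3-A6 4, 3 and 1. Called lower were 2 of 10 fibroblast (median -1.004), 2 of 6 epithelial (-0.98), 1 of 8 mural (-0.69) and 0 of 5 tested lymphoid genes (-0.60). When libraries were scaled to the endothelial markers, the median of all genes moved from -0.05 to -1.31 and Id1 changed sign to -0.14 (adjusted p = 0.811), as did Eng (-0.21), Acvrl1 (-0.16), Smad6 (-0.22) and Id3 (-0.51), all of which then lay above that median. Under this scaling Tgfbr3 (-1.92), Tgfbr1 (-1.59) and Smad7 (-1.38) were called lower, beside 54.6% of all tested genes, and each lay below the median of all genes. The part of endothelial content and of RNA from these other cells in the treatment differences was not tested. The Id1 call was lost without control IgG replicate 4 (adjusted p = 0.110) or 5 (0.0836) and without 6-3-A6 replicate 3 (0.145) or 4 (0.121), whereas Eng and Acvrl1 were called in addition without control IgG replicate 2 (adjusted p = 0.0484 and 0.0384). With the DESeq2 Wald test, Acvrl1, Id3, Eng and Smad6 were called higher too (adjusted p from 0.0127 to 0.0374), beside 4.83% of all tested genes.

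**Figure D3:**
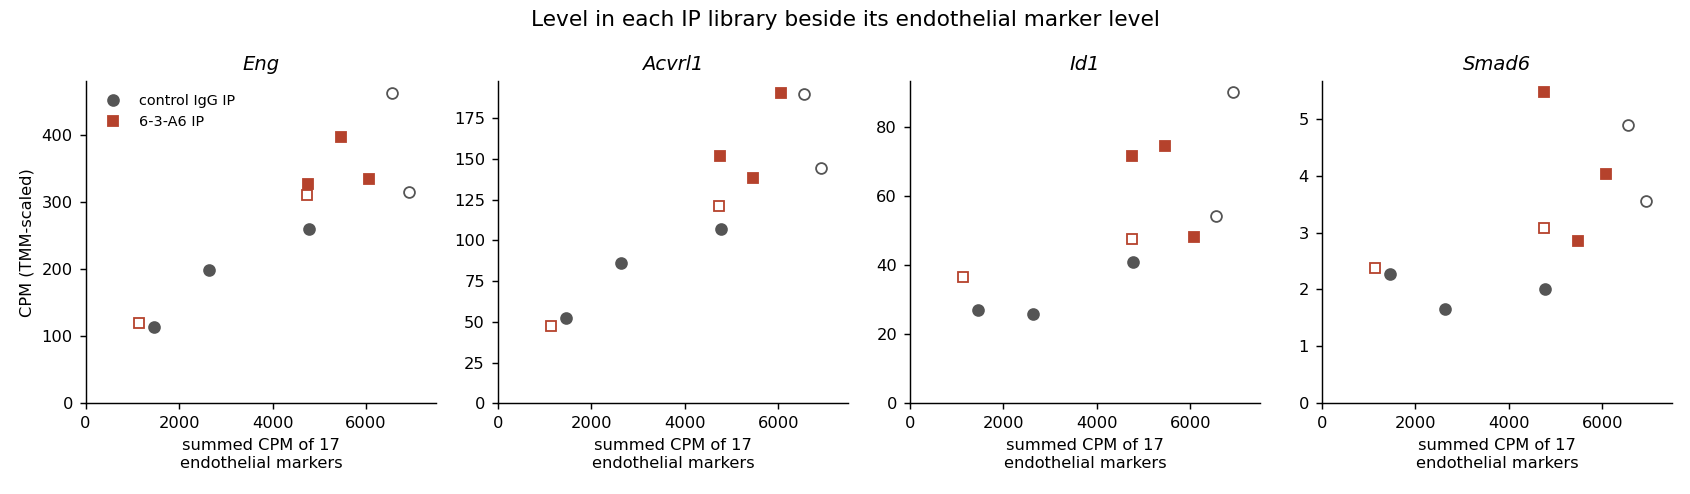
Level of Eng, Acvrl1, Id1 and Smad6 (CPM) in each of the 10 IP libraries against the summed CPM of 17 endothelial markers in the same library. Filled symbols are kept libraries and open symbols those left out; the left-out control IgG libraries have the 2 highest marker sums (6544 and 6924 CPM) and the left-out 6-3-A6 IP 2 the lowest (1140 CPM).

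With all 5 IP libraries per treatment, no member was called and the groups overlapped for all 10, where 0.206% of tested genes did not overlap. Id1 was at 25.9 to 90.1 CPM in control IgG and 36.5 to 74.3 CPM in 6-3-A6, a log2 fold change of 0.21. The highest Id1 value of all belonged to control IgG IP 1, which the study had left out. Eng differed by 0.13, Acvrl1 by 0.15, Smad6 by 0.31 and Id3 by 0.16, and the lowest member was Tgfbr3 at -0.34. Over all genes, 0 of 13602 (0%) were called by edgeR and 0 by DESeq2, with 292 and 359 at an unadjusted p under 0.05. The kept libraries are part of this set, so that the 2 comparisons share 6 libraries.

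In whole tumor homogenate no member was called either. In input, the log2 fold changes of 6-3-A6 over control IgG lay between -0.32 (Eng) and 0.27 (Smad6), the groups overlapped for all 10 members (0.197% of tested genes did not overlap), and 0 of 13683 genes (0%) were called by edgeR or DESeq2 (180 and 220 at an unadjusted p under 0.05). A test of whether the treatment difference in IP differed from that in input gave values between -0.25 and 0.45 for the members and called 0 of 14488 genes (0%), with 125 at an unadjusted p under 0.05 by edgeR and 162 by DESeq2, which also called 0. This test did not pair the fractions of a tumor, and with the tumor as a block it called 0 genes as well.

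**Figure D4:**
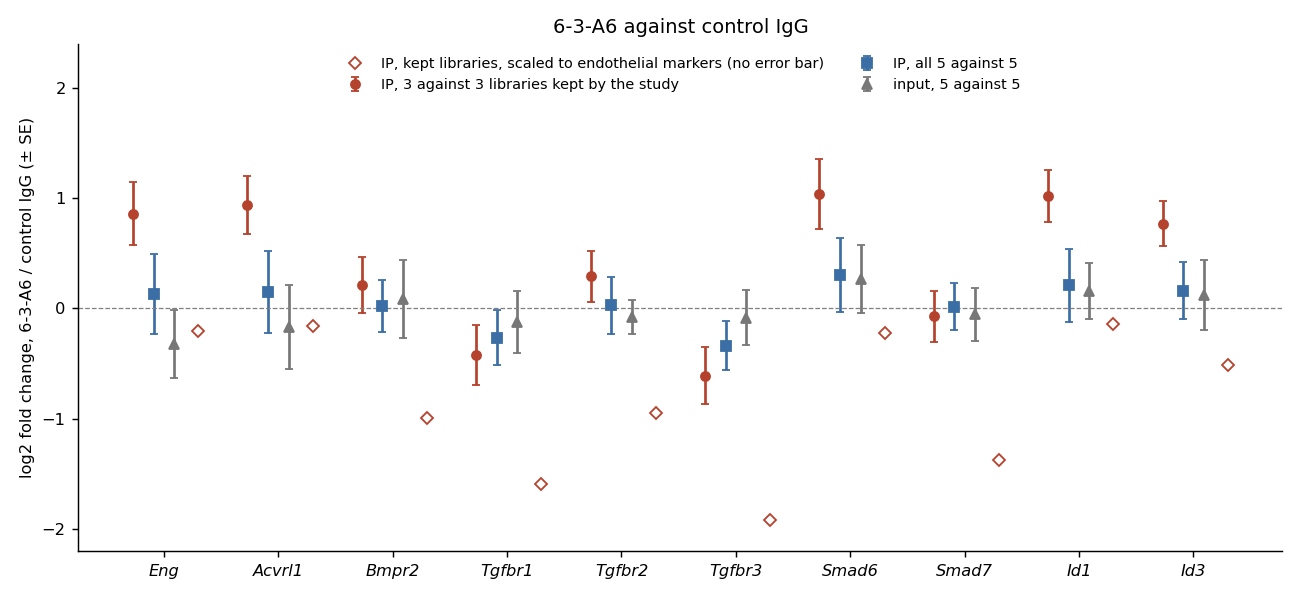
Log2 fold change of 6-3-A6 over control IgG for each member with its SE, in the kept IP libraries, in all IP libraries and in input; open diamonds are the kept libraries scaled to the endothelial markers. Id1 lies at 1.02 in the kept libraries, 0.21 in all IP libraries and -0.14 after that scaling.

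The rest of the pathway held genes that rose and genes that fell between input and IP. Of 82 other pathway genes, 55 were tested for IP over input, of which 13 rose and 17 fell, beside 19.8% and 21.4% of all tested genes, with a median of -0.02. Among the ligands, Bmp2 rose by 3.40 (SE 0.27) and Bmp6 by 3.15 (SE 0.54), and Inhbb, the beta B subunit of activin and inhibin, by 2.73 (SE 0.31). Tgfb1 differed by 0.22 (adjusted p = 0.352), Gdf3 by -0.51 (adjusted p = 0.415), and Bmp4 (-0.36), Gdf11 (-0.70) and Tgfb3 (-0.86) fell. Of the ligand genes, 10 of 24 were tested, of which 3 rose and 3 fell.

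Of the extracellular binders and antagonists, 2 of 13 tested rose and 7 fell. Lrrc32, which holds latent TGF-beta at the cell surface, rose by 3.77 (SE 0.46) and Fstl1 by 1.19, while the latent TGF-beta binding protein gene Ltbp3 (-1.04) and Fst, an activin antagonist (-1.19), fell. Bambi, a pseudoreceptor that lacks the kinase domain, rose by 3.78 (SE 0.30), the most of the 55 genes, whereas the other 3 tested co-receptor genes, Rgmb (-0.44), Rgma (-1.01) and Neo1 (-1.14), fell. Of 5 other type I receptor genes 3 were tested and none rose: Acvr1b was at -0.05, and Acvr1 (-0.42) and Bmpr1a (-0.89) fell. The type II receptors Acvr2a (0.38) and Acvr2b (-0.00077) did not pass the test.

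Inside the cell, Smad1 rose by 1.85 (SE 0.18), from 48.7 to 85.8 CPM in input to 124 to 380 CPM in IP, and Smad5 by 0.36, while Smad2 (-0.02) and Smad4 (-0.06) stayed below the threshold. Fkbp1a, whose product binds type I receptors, rose by 1.00, and Skil (0.33), Smurf2 (0.01) and Tgif1 (-0.28) did not pass the test. Among further target genes 4 of 10 rose and 2 fell. Hey1 rose by 3.13 and the cell cycle inhibitor gene Cdkn1a by 1.17, and the Id family members Id2 (-0.50) and Id4 (-0.69) fell, opposite to Id1.

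Between treatments, 5 of 57 tested pathway genes rose and 5 fell in the kept libraries, beside 2.57% and 2.04% of all genes. Higher in 6-3-A6 were Lrrc32 (2.13), Hey1 (1.55), Cdkn1a (1.11), Smad1 (1.08) and Fkbp1a (0.99), all of which were also enriched in IP. Lower were Gdf3 (-1.99), Ltbp1 (-1.30), Neo1 (-1.08), Tgfbi (-1.07) and Id4 (-0.93), with adjusted p between 0.0168 and 0.0430 for the 10 genes. Of these lower genes, Ltbp1, Neo1 and Id4 were depleted in IP, and Gdf3 and Tgfbi were not called between input and IP. Smad1 (-0.06), Fkbp1a (-0.25) and Cdkn1a (-0.11) changed sign when libraries were scaled to the endothelial markers, and each of the 3 then lay above the median of all genes (-1.31). All 10 calls were lost without 6-3-A6 replicate 3, where 0.0636% of all tested genes were called. None of the pathway genes was called over all IP libraries (0 of 56).

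The genes whose profile over the 20 libraries was most like that of a member were sought by the mean absolute difference of log2 CPM, each gene centered on its own mean, among 14365 other genes with a symbol. For Eng they were Pear1 and Tnfaip8l1 (0.31 each), for Acvrl1 Sema6b (0.25) and Mfng (0.28), and for Id1 Zfp69 (0.26) and Smad1 (0.28). For Bmpr2 they were Fam135a (0.14) and Hipk3 (0.16), for Tgfbr1 Atp13a3 (0.17) and Edem3 (0.18), for Tgfbr2 Ggta1 (0.15) and Ankrd13a (0.16), and for Tgfbr3 Pcyox1 and Cnnm2 (0.16 each). Smad6 was nearest to Rassf3 and Tgds (0.20 each), Smad7 to Mprip and Sertad2 (0.13 each) and Id3 to Prrg2 and Mad2l1bp (0.19 each). Within the set, 4 pairs were each other's nearest member, in order of distance Smad6 and Id3 (0.30), Tgfbr3 and Smad7 (0.34), Tgfbr1 and Tgfbr2 (0.35) and Eng and Acvrl1 (0.52). All libraries share normalization and each tumor contributed an IP and an input library, so these distances are descriptive.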

How the data were processed

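RNA of input and anti-HA IP from 10 tumors was sequenced as single reads. The authors aligned reads with STAR 2.7.4a and deposited raw counts per gene by featureCounts (2.0.1; the submitters' processing notes also list 1.5.2). Lengths of all 55789 genes with 1 interval equal their span, so introns are counted; strandedness is not given in the sources used here, and genes lying within another gene can be listed at 0. Table coordinates are GRCm39, although mm10 is named. The authors' DESeq2 table was used to identify the kept libraries, whose signal, as deposited, is the count divided by a size factor; its log2 fold changes, p-values and Wald score by the authors were not used. Each replicate is 1 tumor. Titles set the groups, while descriptions of the 6-3-A6 samples name the opposite fraction. The 17 endothelial markers summed to 1140 to 6071 CPM in 6-3-A6 libraries titled IP and to 200 to 278 CPM in those titled input, which goes with the titles.

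Differential expression used edgeR 4.0.16 (TMM, filterByExpr, quasi-likelihood F test, Benjamini-Hochberg over all genes tested) in R 4.3.3, with treatment as a term in IP against input; log2 CPM used a prior count of 2. Scripts were tested on simulated data. Alternatives were DESeq2 1.42.0, no filter, the replicate block, endothelial scaling, the kept tumors and each replicate left out. IP and input of a number come from 1 animal, which pairs them (correlation of deviations -0.08 to 0.70). Pathway genes named were the 2 highest and 2 lowest per list for IP over input and those called between treatments. Members and lists were chosen with earlier results of these data known. Depth was 11881214 to 26728205 counts per library.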

Additional observations from a re-analysis of the deposited data

Results flagged for a closer look

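Over the 40 sets of 5 libraries formed by 10 members and 4 groups, 3 values stood apart from the other 4 of their group by more than Dixon's limit for 5 samples (0.71 of the range on the log2 scale), where chance alone gives about 1 in 20 groups. Eng in 6-3-A6 IP 2 was at 119 CPM against 311 to 397 CPM in the other 4 libraries, and this library also had the lowest endothelial marker sum (1140 CPM). Id3 in 6-3-A6 input 4 was at 13.7 CPM against 34.9 to 44.6 CPM, in the library that was also the lowest of its group for Eng (10.3 CPM) and Acvrl1 (6.94 CPM). Tgfbr3 in control IgG input 3 was at 134 CPM against 75.0 to 82.6 CPM. The cause of these values was not tested.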

How the results depend on the processing

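Between IP and input, 5 members were called in the analysis reported (beside 41.2% of all genes tested), 6 with DESeq2 size factors (41.1%) or the DESeq2 Wald test (44.4%), 7 with the tumor as a replicate block (52.4%), 3 in the tumors kept by the study (24.4%) and 4 to 6 with each replicate left out (35% to 42.7%). With settings chosen after seeing the data, 6 were called without the 2 tumors lowest in endothelial markers (36.8%) and 8 with the tumor as a block and 6-3-A6 tumor 4 left out (60.3%). No member changed direction in this comparison under any of these settings. Of the pathway genes near 0, Acvr2b was at 0.017 with DESeq2 size factors, 0.066 without a filter, 0.0099 with DESeq2, 0.14 in the kept tumors, 0.070 without the 2 tumors and -0.063 to 0.052 with each replicate left out. Smad2 was at 0.0027, 0.059 and 0.0024 under the first 3 of these, at 0.0014 under the block without 6-3-A6 tumor 4, and at -0.042 to 0.012 with each replicate left out. Smad4 was at 0.024 without a filter, 0.047 under that block and -0.085 to 0.019 with each replicate left out, Acvr1b at 0.019 without a filter and 0.0028 without the 2 tumors, and Smurf2 at -0.012 to 0.087 with each replicate left out. Between treatments in the kept libraries, 1 member was called in the analysis reported (beside 4.61% of all genes tested), 5 without a filter (5.44%) and 5 with the DESeq2 Wald test (8.94%). With endothelial scaling 3 were called, each lower (54.6%), and with each replicate left out 0 to 3 (0.0636% to 4.61%). The 646 calls over all genes became 9 (without 6-3-A6 3) to 653 with each replicate left out. They became 1459 without a filter, 1251 with DESeq2 and 7649 with endothelial scaling (11 higher, 7638 lower). That scaling reversed Eng (-0.21), Acvrl1 (-0.16), Bmpr2 (-0.99), Tgfbr2 (-0.95), Smad6 (-0.22), Id1 (-0.14), Id3 (-0.51), Smad1 (-0.056), Fkbp1a (-0.25) and Cdkn1a (-0.11). With each replicate left out, Bmpr2 ran from -0.029 to 0.39 and Smad7 from -0.28 to 0.14. The 2 treatment groups of kept libraries share 1 replicate number, and no replicate block was fitted for them. Equal numbers do not pair tumors of different treatments, which came from different mice. Over all IP libraries no setting called a member. The numbers there do not pair tumors (correlations of deviations -0.19 to 0.37), and a replicate block turned Tgfbr2 (-0.019) and Smad7 (-0.022), endothelial scaling turned Bmpr2 (-0.012) and Tgfbr2 (-0.25), and Smad7 was at -0.046 without the 2 libraries lowest in endothelial markers. With each replicate left out, the range was -0.061 to 0.41 for Eng, -0.031 to 0.40 for Acvrl1, -0.15 to 0.17 for Bmpr2, -0.15 to 0.19 for Tgfbr2 and -0.12 to 0.13 for Smad7. The cause of these changes was not tested. Depth limits Smad6 most, whose lowest count was 12.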
